A study of Mus musculus with 4 samples.

Results

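The platelet-derived growth factor (PDGF), vascular endothelial growth factor (VEGF) and angiopoietin genes are described here in primary dermal fibroblasts of newborn mice that lack ADAM9 and of wild-type mice. The 10 genes are the PDGF ligands Pdgfa, Pdgfb, Pdgfc and Pdgfd, the PDGF receptors Pdgfra and Pdgfrb, the VEGF ligands Vegfa, Vegfb and Vegfc, and the angiopoietin Angpt1. Every probe set annotated to exactly 1 of these genes was taken, which gave 22 of the 34945 probe sets on the array that name 1 gene, or 10 of 18193 genes. The groups were adam9 -/- fibroblasts (KO, 2 isolations) and adam9 +/+ fibroblasts (WT, 2 isolations), each isolation on 1 array. Cells came from skin at postnatal day 1 and were cultured for 48 h without treatment before total RNA was extracted. ADAM9 is a membrane-anchored metalloprotease, and the question was which genes differ constitutively in its absence. Strain, sex, targeting construct and any pooling of animals are not stated in the labels, so the spread between isolations may be technical or biological.

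PDGFs are secreted dimers that signal through receptor tyrosine kinases on mesenchymal cells. PDGF-A and PDGF-C act mainly through the receptor encoded by Pdgfra, a gene widely used to mark dermal fibroblasts, and PDGF-B and PDGF-D through the receptor encoded by Pdgfrb, which is prominent on pericytes. VEGFs and angiopoietins are made by stromal cells and act largely on endothelium, where VEGF-A drives blood vessel growth, VEGF-C drives lymphatic growth and angiopoietin-1 stabilises vessels through the TIE2 receptor. Fibroblasts are therefore senders for most of the VEGF and angiopoietin signals and both senders and receivers for PDGF.

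Values are the deposited probe-set values, taken as log2, and differences are KO minus WT on that scale. If the base was not 2, the folds would change and the order would not. Levels are not compared between genes, since probes differ in brightness at equal RNA. Brightness served to filter out dim probe sets and to choose the probe set that stands for a gene in the lists. Summed linear levels add over genes, so the brightest probe sets weigh most in them. Adam9 stood at 8.33 and 8.55 in KO isolations 1 and 2 and at 11.58 and 11.70 in WT isolations 1 and 2 (limma adjusted p = 0.0242 in the fit of 1 probe set per gene). Of 12 dermal fibroblast markers, 12 passed the filter on dim probe sets, with Col1a2 at 14.09 and 14.08 in KO and 14.09 and 13.93 in WT. Of 11 endothelial markers, 5 passed, and the defining genes Pecam1 (3.13 and 2.97 in KO, 2.94 and 2.79 in WT) and Cdh5 lay under the filter value of 4.17. The summed linear level of the 11 endothelial markers was 316 and 329 in KO and 300 and 282 in WT. Of keratinocyte, skeletal muscle, Schwann and melanocyte, and adipocyte markers, 4 of 8, 3 of 8, 4 of 7 and 2 of 5 measured genes passed the filter. The summed linear level of the 8 keratinocyte markers was 258 and 222 in KO against 493 and 508 in WT, but the markers did not move alike. The largest of their differences were those of Perp (5.28 and 3.04 in KO, 8.10 and 7.90 in WT) and Dsp (3.06 and 3.55 in KO, 4.84 and 6.75 in WT). Krt5 was flat (4.84 and 4.84 in KO, 4.85 and 4.84 in WT), and Krt10 was higher in both KO arrays (7.17 and 7.02 in KO, 6.92 and 6.49 in WT). Krt14 and Cdh1 were under the filter, and the part of these markers in the results below was not tested. Macrophage and leukocyte markers were high in 1 array, with a summed linear level over 16 genes of 661 and 574 in KO against 12020 and 809 in WT isolations 1 and 2. Proliferation genes moved with genotype, with medians over 11 genes of 8.25 and 9.03 in KO and 6.33 and 6.32 in WT. Xist stood at 10.38 and 10.40 in KO and at 4.29 and 4.32 in WT. The Y-linked gene Eif2s3y stood at 2.75 and 2.67 in KO and at 9.19 and 9.31 in WT, and Kdm5d and Uty went the same way. By these genes the KO arrays read as female and the WT arrays as male, so genotype and sex cannot be told apart in any comparison below. As in any bulk sample, fewer cells of a type and less RNA per cell cannot be told apart either.

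Across the PDGF, VEGF and angiopoietin genes, the KO arrays had lower values for the ligand genes Pdgfa and Pdgfc, by about 1 log2 unit each, and higher values for the receptor gene Pdgfra and the ligand gene Vegfc. Differences for Pdgfrb, Vegfa and Vegfb were under 0.4 log2 units in size. None of these differences passed the limma test after Benjamini-Hochberg adjustment over the 23595 probe sets tested. Of the 22 probe sets, 19 passed the filter on dim values, and 0 of 19 had an adjusted p under 0.05 (smallest 0.180), where 0.0424% of all tested probe sets did. At an unadjusted limma p under 0.05 stood 8 of the 19, where 11.1% of all tested probe sets did, with 4 higher (5.61% of all tested) and 4 lower (5.46%) in KO. That count was 3 without KO isolation 1, 3 without KO isolation 2, 4 without WT isolation 2 and 10 without WT isolation 1. The genotypes did not overlap for 13 of the 19, with 7 higher and 6 lower in KO, where 44.5% of all tested probe sets did not overlap (21.8% higher and 22.8% lower). For 7 of the 19 the genotypes did not overlap and were at least 2-fold apart, where 3.78% of all tested probe sets met that rule. These 7 belong to the 3 genes Pdgfa, Pdgfc and Pdgfra, and probe sets of 1 gene read the same RNA, so they are not independent counts. With 1 probe set per gene, 9 of the 10 genes passed the filter, 0 of 9 were called (smallest adjusted p = 0.226; 0.0678% of 13271 genes were called), and 3 of 9 differed by at least 2-fold without overlap (4.42% of genes).

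**Figure D1:**
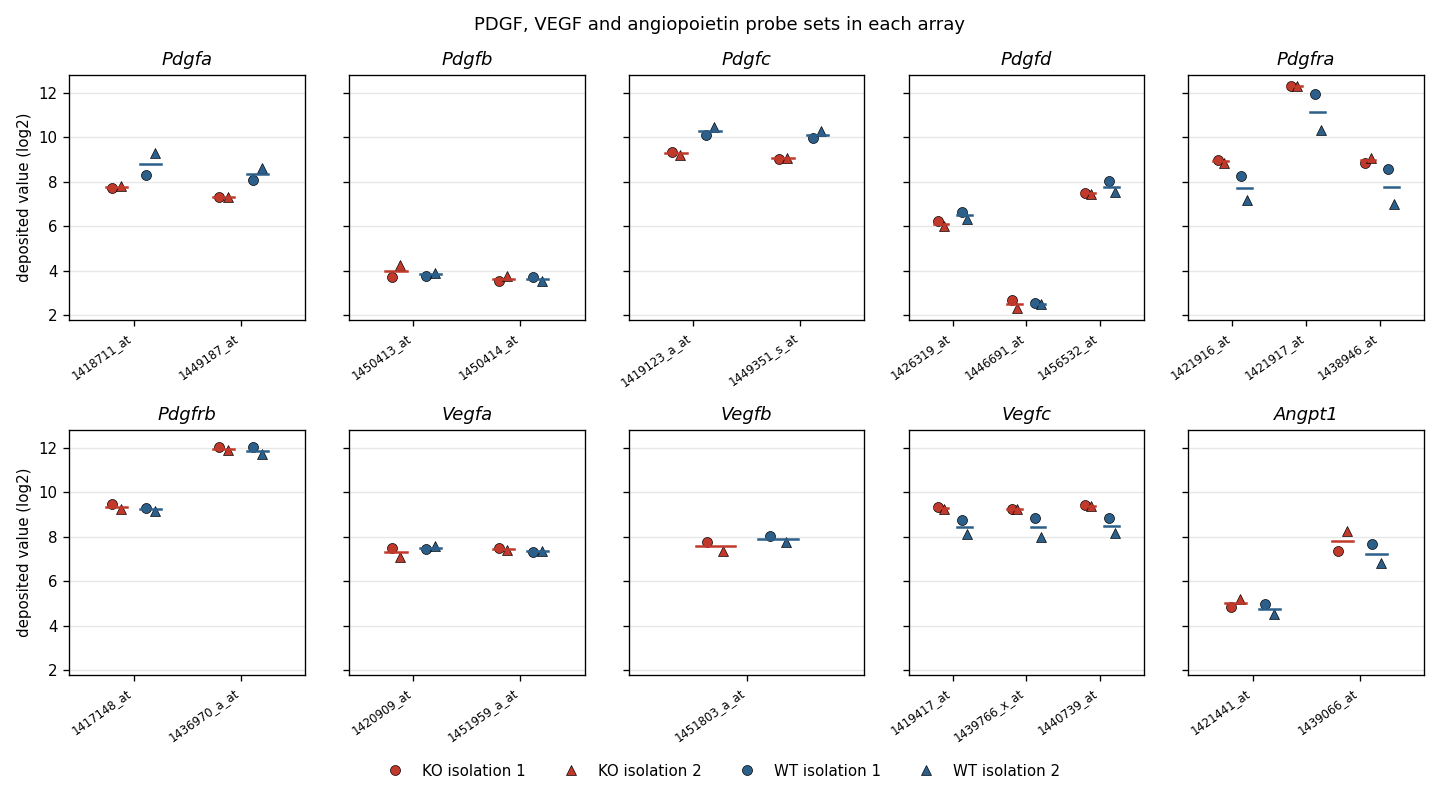
Deposited log2 value (vertical axis) of each probe set of the 10 genes in the 4 arrays, with KO in red left of WT in blue, circles for isolation 1, triangles for isolation 2 and bars for group means. Pdgfa and Pdgfc lie lower in both KO arrays, and Pdgfra and Vegfc lie higher, with WT isolation 2 farthest from the KO arrays in each.

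Pdgfa (Entrez 18590) encodes PDGF-A, a ligand of PDGF receptor alpha. Probe set 1418711_at read 7.73 and 7.81 in KO isolations 1 and 2, against 8.33 and 9.27 in WT isolations 1 and 2. Probe set 1449187_at read 7.31 and 7.34 in KO, against 8.08 and 8.62 in WT. In each, the KO arrays lay close together below both WT arrays, and WT isolation 2 was the highest array. The means for 1418711_at were 7.77 ± 0.0572 in KO and 8.80 ± 0.669 in WT (SD, n = 2 each), a difference of -1.03 (SE 0.337, 95% interval -1.92 to -0.14, limma adjusted p = 0.408). For 1449187_at the difference was -1.02 (SE 0.220, 95% interval -1.60 to -0.44, limma adjusted p = 0.286), or 2.03-fold lower in KO. The 2 probe sets differed by 0.0082 in their genotype difference. The size rested partly on WT isolation 2, since without it the differences were -0.56 and -0.75, and without WT isolation 1, the array high in macrophage markers, they were -1.50 and -1.30.

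Pdgfc (Entrez 54635) encodes PDGF-C, a latent ligand of the same receptor that must lose its CUB domain by proteolysis to become active. Probe set 1419123_a_at read 9.35 and 9.21 in KO isolations 1 and 2, against 10.11 and 10.47 in WT isolations 1 and 2. Probe set 1449351_s_at, whose suffix marks a design that may bind related transcripts, read 9.03 and 9.07 in KO, against 9.97 and 10.27 in WT. The gap between the genotypes was wider than the gap within either genotype for both probe sets. The means for 1449351_s_at were 9.05 ± 0.0270 in KO and 10.12 ± 0.214 in WT (SD, n = 2 each). Its difference was -1.06 (SE 0.161, 95% interval -1.49 to -0.64), a 2.09-fold lower value in KO, with the smallest adjusted p among the members (limma adjusted p = 0.180). For 1419123_a_at the difference was -1.01 (SE 0.178, limma adjusted p = 0.220). Pdgfc was the steadiest of Pdgfa, Pdgfc, Pdgfra and Vegfc when arrays were left out, with differences of -1.22 to -0.83 over both probe sets and all 4 omissions. Only 1.39% of all tested probe sets had a difference as low as that of 1449351_s_at.

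Pdgfd (Entrez 71785) encodes PDGF-D, a ligand of PDGF receptor beta. Its 3 probe sets did not move alike. Probe set 1426319_at read 6.22 and 6.01 in KO, against 6.67 and 6.31 in WT, and 1456532_at read 7.49 and 7.46 in KO, against 8.03 and 7.52 in WT. For both, all KO values lay below all WT values, and the nearest KO and WT arrays differed by -0.0894 and -0.0313. Their differences were -0.37 (SE 0.185, limma adjusted p = 0.532) and -0.30 (SE 0.210, limma adjusted p = 0.629), and they were -0.20 and -0.05 without WT isolation 1 and -0.55 and -0.55 without WT isolation 2. The third probe set, 1446691_at, was below the filter in every array, at 2.68 and 2.31 in KO and 2.55 and 2.50 in WT.

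Pdgfb (Entrez 18591) encodes PDGF-B, a ligand of both PDGF receptors that endothelial cells are known to use to recruit pericytes. Neither of its probe sets passed the filter. Probe set 1450413_at read 3.75 and 4.25 in KO, against 3.77 and 3.91 in WT, and 1450414_at read 3.56 and 3.75 in KO, against 3.73 and 3.54 in WT. The genotypes overlapped in both, and the differences of 0.16 (95% interval -0.39 to 0.70) and 0.02 (95% interval -0.36 to 0.40) come from the limma fit without a filter. No detection calls were used, so values this low have no stated background level.

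Pdgfra (Entrez 18595) encodes PDGF receptor alpha, the receptor for PDGF-A and PDGF-C. Probe set 1421917_at read 12.30 and 12.31 in KO isolations 1 and 2, against 11.93 and 10.35 in WT isolations 1 and 2. Probe set 1421916_at read 8.98 and 8.86 in KO, against 8.29 and 7.19 in WT. Probe set 1438946_at read 8.84 and 9.09 in KO, against 8.56 and 6.99 in WT. All 3 put the KO arrays above both WT arrays and WT isolation 2 well below WT isolation 1. The means for 1421917_at were 12.30 ± 0.00837 in KO and 11.14 ± 1.12 in WT (SD, n = 2 each), a difference of 1.16 (SE 0.538, 95% interval -0.26 to 2.58, limma adjusted p = 0.509). The differences of the others were 1.18 (SE 0.386, limma adjusted p = 0.406) for 1421916_at and 1.19 (SE 0.538, limma adjusted p = 0.500) for 1438946_at. The 3 differences spanned 0.0312, so the probe sets measured nearly the same change.

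The size of the Pdgfra difference depended on WT isolation 2. Without it the differences were 0.37 for 1421917_at, 0.63 for 1421916_at and 0.41 for 1438946_at, and without WT isolation 1 they were 1.96, 1.73 and 1.98. The fibroblast matrix gene Lum, for the proteoglycan lumican, had the same order of arrays, at 12.81 and 12.78 in KO and 12.38 and 10.13 in WT. Fbln1, for the matrix protein fibulin-1, stood at 8.94 and 8.60 in KO and 8.36 and 6.79 in WT. Of the 12 fibroblast markers, these 2 had both KO arrays above WT isolation 1 and that above WT isolation 2, and 7 had their lowest value in WT isolation 2. How often all tested genes had either order was not counted, so these counts describe the list only. Among the 7, Dcn stood at 13.42 and 13.38 in KO and 13.41 and 12.32 in WT. Thy1, not among them, stood at 12.26 and 12.46 in KO and 12.41 and 12.33 in WT. Fn1 went the other way, at 12.90 and 13.16 in KO and 13.76 and 13.73 in WT (difference -0.71, limma adjusted p = 0.283). Of the 12 markers, the genotypes did not overlap for 2 that were higher in KO (23% of genes) and 1 that was lower (22% of genes). Lum, Fbln1, Dcn, Thy1 and Fn1 were chosen from the marker list after their values were seen, and their part in the Pdgfra result was not tested.

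Pdgfrb (Entrez 18596) encodes PDGF receptor beta. Probe set 1436970_a_at read 12.03 and 11.88 in KO, against 12.02 and 11.72 in WT, and 1417148_at read 9.46 and 9.26 in KO, against 9.31 and 9.15 in WT. The genotypes overlapped in both probe sets, and in each genotype isolation 2 was the lower array. The differences were 0.09 (SE 0.168, 95% interval -0.35 to 0.54, limma adjusted p = 0.865) and 0.13 (SE 0.153, 95% interval -0.27 to 0.53, limma adjusted p = 0.773). The intervals end below 1 log2 unit on either side, so a change of 2-fold lies outside them, while smaller ones do not. Pericyte and smooth muscle markers, cells in which Pdgfrb is prominent, had medians over 10 genes of 7.27 and 6.22 in KO and 7.68 and 7.44 in WT. Their summed linear level was 16860 and 15040 in KO and 17840 and 21010 in WT, a sum in which the brightest marker, Acta2, weighs most. The markers did not move alike, with 8 negative and 2 positive differences. Abcc9 (7.49 and 6.48 in KO, 5.49 and 3.45 in WT) and Kcnj8 (8.38 and 5.97 in KO, 5.86 and 4.30 in WT) were the higher ones. Myh11, among the lower ones, had the largest difference of the list (6.55 and 5.48 in KO, 8.71 and 9.57 in WT). The genotypes did not overlap for 2 markers that were higher in KO (23% of genes) and 8 that were lower (22% of genes). The part of these markers in the Pdgfrb values was not tested.

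Vegfa (Entrez 22339) encodes VEGF-A, the main inducer of blood vessel growth. Probe set 1420909_at read 7.51 and 7.09 in KO, against 7.45 and 7.57 in WT, and 1451959_a_at read 7.51 and 7.39 in KO, against 7.34 and 7.38 in WT. The genotypes overlapped in the first probe set and were 0.0175 apart at the nearest arrays in the second. Their differences had opposite signs, at -0.21 (SE 0.193, 95% interval -0.72 to 0.30, limma adjusted p = 0.707) and 0.09 (SE 0.132, 95% interval -0.25 to 0.44, limma adjusted p = 0.813). The first was -0.00018 without KO isolation 2 and -0.42 without KO isolation 1, and the second was 0.036 without KO isolation 1 and 0.15 without KO isolation 2. Vegfb (Entrez 22340), for VEGF-B, a ligand of the receptor encoded by Flt1, had 1 probe set, 1451803_a_at. It read 7.76 and 7.37 in KO, against 8.06 and 7.75 in WT, so that KO isolation 1 and WT isolation 2 nearly coincided. The difference was -0.34 (SE 0.206, 95% interval -0.88 to 0.21, limma adjusted p = 0.587). It was -0.53 without KO isolation 1, -0.14 without KO isolation 2, -0.18 without WT isolation 1 and -0.49 without WT isolation 2.

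Vegfc (Entrez 22341) encodes VEGF-C, the ligand that drives lymphatic vessel growth through the receptor encoded by Flt4. Probe set 1440739_at read 9.42 and 9.37 in KO isolations 1 and 2, against 8.86 and 8.15 in WT isolations 1 and 2. Probe set 1419417_at read 9.32 and 9.23 in KO, against 8.77 and 8.12 in WT. Probe set 1439766_x_at, whose suffix marks probes that may bind other transcripts, read 9.27 and 9.27 in KO, against 8.86 and 7.99 in WT. As for Pdgfra, the KO arrays agreed closely, WT isolation 1 lay below them and WT isolation 2 was lowest. The means for 1440739_at were 9.39 ± 0.0324 in KO and 8.50 ± 0.502 in WT (SD, n = 2 each), a difference of 0.89 (SE 0.266, 95% interval 0.18 to 1.59, limma adjusted p = 0.381), or 1.85-fold higher in KO. The other differences were 0.83 (SE 0.251, limma adjusted p = 0.383) for 1419417_at and 0.84 (SE 0.315, limma adjusted p = 0.447) for 1439766_x_at. Without WT isolation 2 the 3 differences ranged over 0.40 to 0.53, and without WT isolation 1 over 1.16 to 1.28.

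Angpt1 (Entrez 11600) encodes angiopoietin-1, the activating ligand of TIE2. Probe set 1439066_at read 7.36 and 8.27 in KO, against 7.66 and 6.84 in WT, and 1421441_at read 4.87 and 5.22 in KO, against 4.97 and 4.53 in WT. In both, KO isolation 2 was the highest array, WT isolation 2 the lowest, and the genotypes overlapped. The differences were 0.56 (SE 0.423, 95% interval -0.55 to 1.68, limma adjusted p = 0.650) and 0.29 (SE 0.224, 95% interval -0.30 to 0.88, limma adjusted p = 0.653). Without KO isolation 2 they were 0.11 and 0.12, and without WT isolation 2 they were 0.15 and 0.08. Without KO isolation 1 they were 1.02 and 0.47, and without WT isolation 1 they were 0.98 and 0.51.

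**Figure D2:**
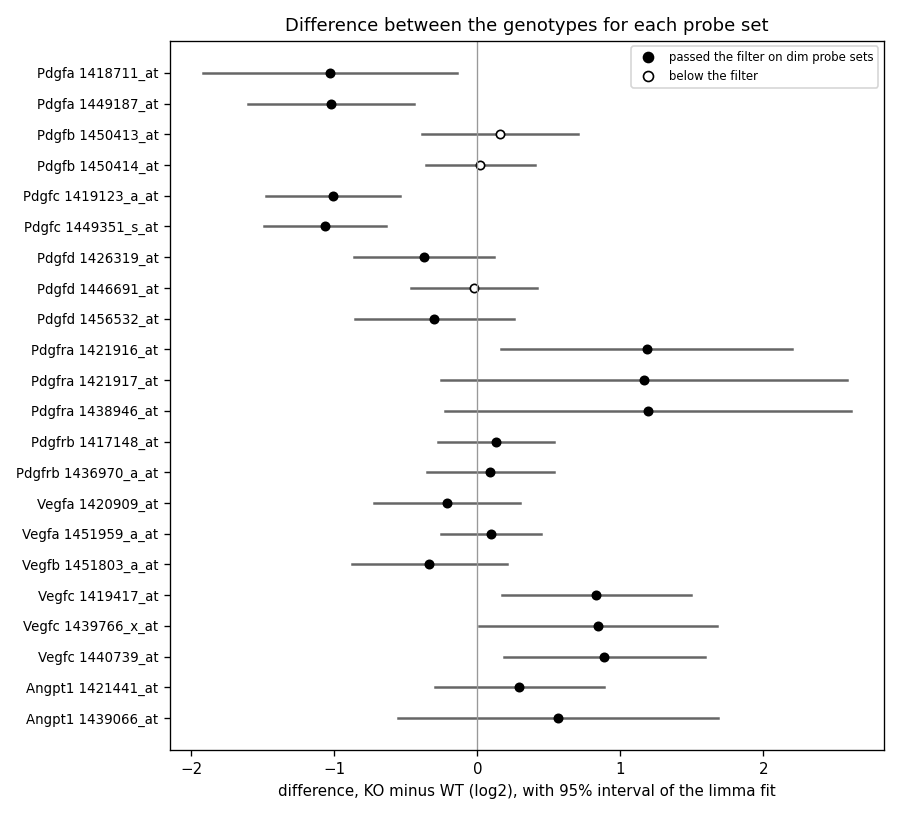
Difference between KO and WT on the log2 scale (horizontal axis) for each of the 22 probe sets, with 95% intervals of the limma fit. Filled points passed the filter on dim probe sets and open points, both of Pdgfb and 1 of Pdgfd, did not. Probe sets of Pdgfa, Pdgfc, Pdgfra and Vegfc cluster by gene, and the widest intervals are those of Pdgfra 1421917_at and 1438946_at.

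Pdgfa, Pdgfc, Pdgfra and Vegfc, grouped after their values were seen, shared an order of arrays. Since the genes were picked by these values and probe sets of 1 gene read the same RNA, the counts below describe the group and test nothing. In 10 of their 10 probe sets the KO arrays were closer to each other than the WT arrays were, with gaps of at most 0.248 between KO isolations and of 0.303 to 1.59 between WT isolations. Over all tested probe sets the KO gap was the smaller one in 42.3%. WT isolation 2 was farther from the KO mean than WT isolation 1 in 10 of the 10. The same held for 68.4% of the 1313 tested probe sets whose genotypes did not overlap and that differed by at least 0.8, and for 56.2% of all 10506 that did not overlap. The summed macrophage markers were highest in WT isolation 1. Of 14 tested macrophage markers, 10 were lower in KO without overlap (22% of genes) and 0 were higher (23% of genes). Proliferation values were higher in both KO arrays. The part of macrophage or proliferation genes in the differences of Pdgfa, Pdgfc, Pdgfra and Vegfc was not tested.

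**Figure D3:**
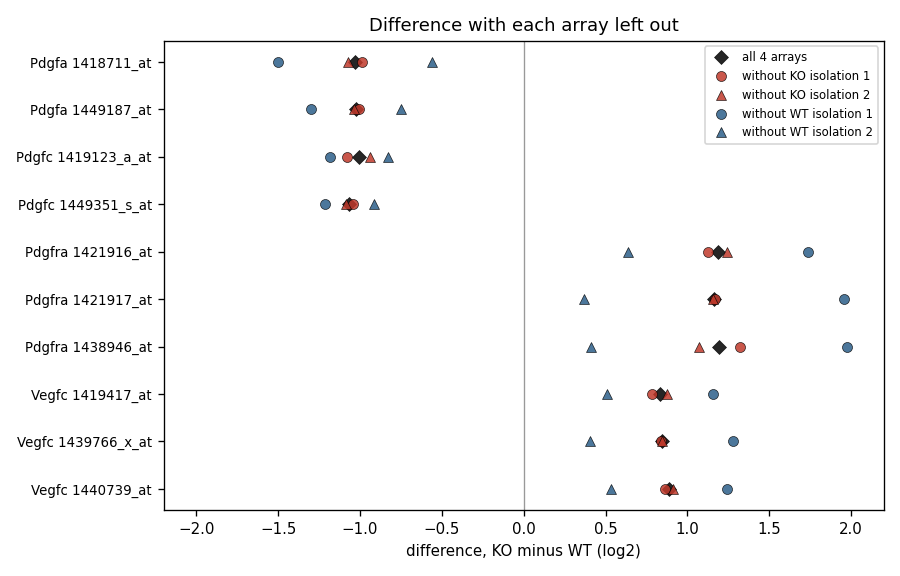
Difference between KO and WT on the log2 scale (horizontal axis) for the 10 probe sets of Pdgfa, Pdgfc, Pdgfra and Vegfc, with all 4 arrays (diamonds) and with each array left out in turn (red for KO, blue for WT, circles for isolation 1, triangles for isolation 2). Omitting WT isolation 2 moves Pdgfra 1421917_at to 0.37 and omitting WT isolation 1 moves it to 1.96, while Pdgfc stays between -1.22 and -0.83.

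**Figure D4:**
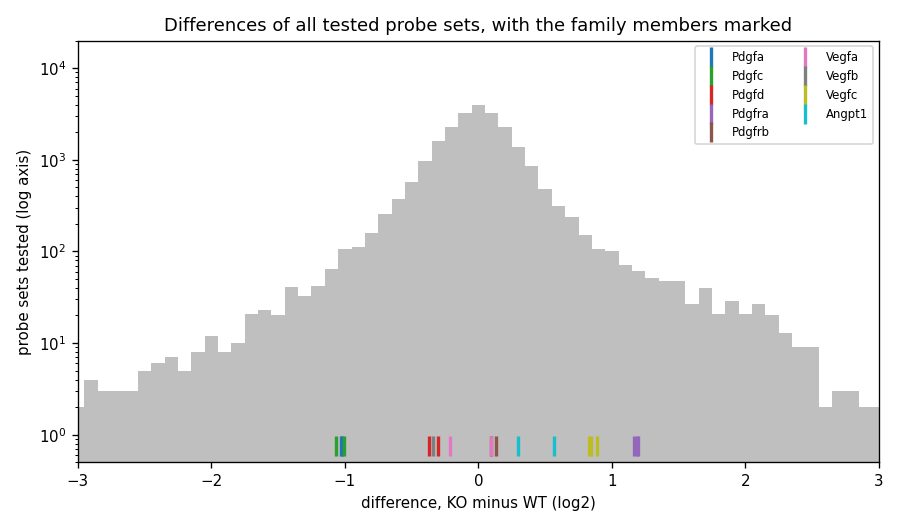
Number of tested probe sets (vertical log axis) by difference between KO and WT in bins of 0.1 log2 units (horizontal axis), with coloured ticks for the 19 member probe sets that passed the filter. The axis ends at 3 on either side, which leaves out 27 probe sets. Pdgfa and Pdgfc sit in the lower tail, at percentiles 1.39 to 1.64, and Pdgfra sits in the upper tail, at percentiles 98.1 to 98.2.

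The bases upstream of these 4 genes are shown so that the genes with lower and higher KO values can be compared at their starts. The sequences are RefSeq's for GRCm38.p6, 250 bases ending just before the outermost annotated start, read 5′ to 3′ on the gene's strand. Capitals mark GC boxes (GGGCGG or its complement CCGCCC), the letters bound by SP1-family factors. Pdgfa lies at chr5:138994945-138995194 (minus strand), Pdgfc at chr3:81036166-81036415 (plus), Pdgfra at chr5:75152001-75152250 (plus) and Vegfc at chr8:54077282-54077531 (plus).
Pdgfa: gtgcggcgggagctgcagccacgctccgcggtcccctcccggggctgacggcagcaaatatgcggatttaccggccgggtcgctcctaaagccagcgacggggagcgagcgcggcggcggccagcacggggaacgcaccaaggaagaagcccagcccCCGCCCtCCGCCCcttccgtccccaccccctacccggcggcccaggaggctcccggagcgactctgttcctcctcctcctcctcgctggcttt
Pdgfc: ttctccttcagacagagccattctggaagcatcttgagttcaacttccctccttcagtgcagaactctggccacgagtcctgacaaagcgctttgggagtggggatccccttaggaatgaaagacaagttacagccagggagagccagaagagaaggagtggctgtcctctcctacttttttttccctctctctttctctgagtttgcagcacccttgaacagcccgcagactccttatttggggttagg
Pdgfra: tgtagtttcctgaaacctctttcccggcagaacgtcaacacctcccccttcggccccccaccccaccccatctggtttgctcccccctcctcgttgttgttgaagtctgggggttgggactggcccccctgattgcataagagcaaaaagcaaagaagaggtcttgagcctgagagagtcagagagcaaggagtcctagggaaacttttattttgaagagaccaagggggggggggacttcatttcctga
Vegfc: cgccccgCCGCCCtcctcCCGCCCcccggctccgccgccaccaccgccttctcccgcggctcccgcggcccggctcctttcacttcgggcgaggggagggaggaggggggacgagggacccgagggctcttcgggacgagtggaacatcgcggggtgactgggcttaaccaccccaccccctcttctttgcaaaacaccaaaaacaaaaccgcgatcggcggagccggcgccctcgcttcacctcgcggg

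Pdgfa and Vegfc each had 2 GC boxes in this window, and Pdgfc and Pdgfra had 0. In the array values Pdgfa and Pdgfc were lower and Vegfc and Pdgfra higher in KO, and a link between motif and values was not tested. A GC box was present in 33.0% of the 27025 such windows, 1 per gene. GC content was 72.4% for Pdgfa, 71.6% for Vegfc, 50.8% for Pdgfc and 54.4% for Pdgfra, and the median over all windows was 52.0%. Neither the hypoxia response core ACGTG (16.5% of all windows, both strands) nor the AP-1 letters TGANTCA (6.85%) occurred in these 4 windows. A match in letters is a description and not a binding site, and 7 of the 10 genes had a window that was read. Member windows on chromosome 18, which holds Pdgfrb, were left out.

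Other ligands and receptors of the families made up a list of 12 genes, of which 11 passed the filter. By limma on 1 probe set per gene, 0 of 11 had an adjusted p under 0.05, 8 differences were negative and 3 positive, and the median was -0.271, beside 0.00273 over all genes tested. The genotypes did not overlap for 2 that were higher in KO (23% of genes) and 4 that were lower (22% of genes). Pdgfrl, which encodes a PDGF receptor-like protein without a kinase domain, had the largest difference. It stood at 10.92 and 10.58 in KO, against 10.12 and 9.12 in WT (difference 1.13, SE 0.376, limma adjusted p = 0.411), the array order also seen for Pdgfra. Angpt4, an angiopoietin, stood at 5.94 and 5.36 in KO, against 6.20 and 7.02 in WT (difference -0.96, SE 0.360, limma adjusted p = 0.441).

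VEGF and angiopoietin receptors are best known from endothelium. Of the 11 endothelial markers 5 passed the filter, Tek and Kdr among them, while Pecam1 and Cdh5 did not. Tek, which encodes the angiopoietin receptor TIE2, stood at 6.06 and 6.37 in KO, against 5.98 and 5.13 in WT (difference 0.66, limma adjusted p = 0.521). Kdr, for the main VEGF-A receptor, stood at 5.37 and 5.47 in KO, against 5.64 and 5.69 in WT (difference -0.25, limma adjusted p = 0.530). For Flt4, the VEGF-C receptor, the brighter probe set read 4.82 and 6.84 in KO, against 5.93 and 6.76 in WT, so its spread within a genotype exceeded its difference of -0.51. Flt1, a receptor of VEGF-A and VEGF-B, had 4 probe sets with differences of 0.09 to 0.91. The 0.91 came from 1419300_at, at 6.89 and 7.12 in KO, against 5.89 and 6.31 in WT (SE 0.200, limma adjusted p = 0.293 in the probe-set fit). In the other Flt1 probe sets the genotypes overlapped. The brightest, 1451756_at, read 7.64 and 7.37 in KO, against 6.97 and 7.54 in WT (difference 0.25).

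Nrp1 encodes neuropilin-1, a co-receptor for VEGF-A that fibroblasts also express. All 4 of its probe sets were lower in both KO arrays, with differences of -0.67 to -0.49. The brightest stood at 10.59 and 10.93 in KO, against 11.45 and 11.06 in WT (difference -0.49, SE 0.212, limma adjusted p = 0.476). Pgf, for the placental growth factor that binds the Flt1 receptor, stood at 5.62 and 5.56 in KO, against 5.89 and 5.83 in WT (difference -0.27, limma adjusted p = 0.494).

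Genes for the processing of these ligands formed a list of 8, of which 7 passed the filter and 0 had an adjusted p under 0.05. Of the 7, 6 differences were negative and 1 positive, with a median of -0.272. Ccbe1, which promotes the cleavage of VEGF-C into its active form, stood at 5.51 and 4.65 in KO, against 6.12 and 6.95 in WT (difference -1.46, SE 0.423, limma adjusted p = 0.370). Its other 3 probe sets were below the filter. Pcsk5, a proprotein convertase, stood at 8.02 and 7.84 in KO, against 8.90 and 8.29 in WT (difference -0.67, SE 0.245, limma adjusted p = 0.433). Plat, for the tissue plasminogen activator that cleaves PDGF-C, differed by -0.27 (limma adjusted p = 0.599).

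Signalling partners of the PDGF receptors, from the adaptor Grb2 to the phosphatase Ptpn11, gave 15 negative and 3 positive differences among 18 tested genes, with a median of -0.173. Of these, 0 had an adjusted p under 0.05, and the genotypes did not overlap for 1 higher and 9 lower in KO, where 23% of genes were higher and 22% lower without overlap. Pik3r1, the regulatory subunit of phosphoinositide 3-kinase that docks on the activated receptor, stood at 8.67 and 8.21 in KO, against 9.24 and 8.74 in WT (difference -0.55, SE 0.258, limma adjusted p = 0.503). Ptprj, a receptor phosphatase that acts on PDGF receptors, stood at 4.29 and 4.54 in KO, against 4.995 and 4.65 in WT (difference -0.41, SE 0.187, limma adjusted p = 0.494).

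**Figure D5:**
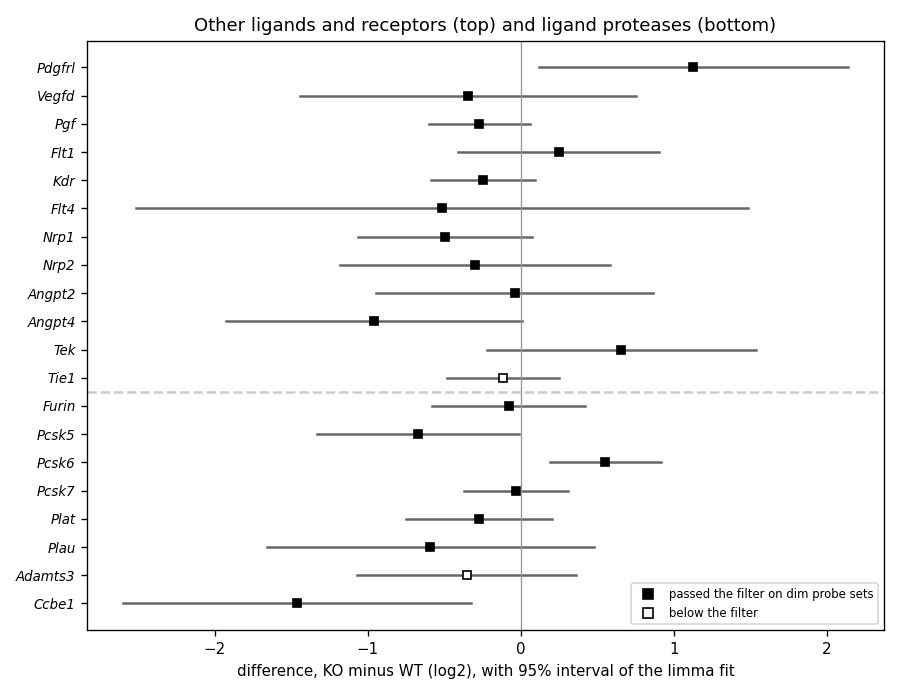
Difference between KO and WT on the log2 scale (horizontal axis) with 95% intervals of the limma fit, for 12 other ligands and receptors above the dashed line and 8 genes of ligand processing below it, 1 probe set per gene. Open squares, Tie1 and Adamts3, were below the filter. Pdgfrl lies highest, at 1.13, and Ccbe1 lowest, at -1.46.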

How the data were processed

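The 4 arrays were hybridised with biotin-labelled total RNA, per the labels' protocols. The authors deposited values on a scale taken as log2, made with Affymetrix Expression Console per the submitters' processing notes. Not given in the sources used here are its version, the summary algorithm, the normalization and the log base. Values ran from 1.7 to 14.4, with array medians of 4.88 and 4.84 in KO and 4.87 in each WT array, and were not centred by gene. The number of arrays limits the precision.

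Probe sets were named by the platform annotation, with symbols updated by Entrez identifier for 34741 of 34945 probe sets that name 1 gene. Those with several names (932), none (9160) or controls (64) were left out. Probe sets with a mean over all arrays above the 40th percentile were fitted with limma 3.58.1 in R 4.3.3 (lmFit, eBayes, no block), with Benjamini-Hochberg adjustment over all tested. The fit had 2 residual and 2.60 prior degrees of freedom. Its code was run on data simulated with independent errors under the fit's own variance prior. That run checks the code and cannot show that the model holds for these arrays. An exact permutation test of 2 against 2 arrays cannot go below p = 0.333 (two-sided), so none was run. List genes are represented by their probe set with the highest mean. The members, lists and tests were chosen with earlier results of these data known. All member probe sets are named. The 2 largest differences are named from the lists of other ligands and receptors, ligand processing, signalling partners, hypoxia-inducible factors and angiopoietin-like genes. None of these lists held a called gene. Flt1, Kdr, Flt4, Tek, Nrp1 and Pgf are named too, and Plat was added after its values were seen. Cell type markers are named as examples without a fixed rule, and no proliferation gene is named. Each limma p-value tests the KO minus WT difference against the spread between isolations, moderated over all tested probe sets. Alternatives were other filters, normalizations, a replicate block, array weights, a variance trend, probe-set choices and each array left out.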

Additional observations from a re-analysis of the deposited data

How the results depend on the processing

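With all 13 alternatives 0 member probe sets were called by limma, and 0 member genes, the latter also with the mean over the probe sets of a gene. The count over all probe sets, 10 in the chosen setting, was 6 with the filter at the 60th percentile and 0 with the isolation number as a replicate block. It was 0 to 0 with each array left out in turn, where fewer samples leave 1 residual degree of freedom. The lone array of a genotype is then assumed to vary like the others. Isolation numbers carried no stated meaning, and the deviations of same-numbered arrays correlated at 0.0829 across probe sets, so the block is not taken as a pairing. Filters, normalizations, array weights, the variance trend and the block kept the direction of every member probe set. Direction reversed only without single arrays and only for small differences. Pdgfb 1450413_at ranged from -0.096 (without KO isolation 2) to 0.41, Pdgfb 1450414_at from -0.076 (without KO isolation 2; -0.073 without WT isolation 2) to 0.12, Pdgfd 1446691_at from -0.21 to 0.16 (without KO isolation 2), and Pdgfrb 1436970_a_at from -0.060 (without WT isolation 2) to 0.24. The causes were not tested. Adjusted p-values over the alternatives ranged from 0.162 to 0.694 for Pdgfc 1449351_s_at and from 0.244 to 0.946 for Pdgfra 1421917_at. Signal over background could not be judged without detection calls, which limits what can be said of Pdgfb and of Pdgfd 1446691_at.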

Other observations

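Vegfa is a known target of the hypoxia-inducible factors, and a list of their regulators and targets was described beside it. Of 19 genes that passed the filter, 0 had a limma adjusted p under 0.05, 11 differences were negative and 8 positive, and the median was -0.0665. The genotypes did not overlap for 4 genes with higher and 4 with lower values in KO, beside 23% and 22% of all genes tested, so these counts are near the background. Epas1, which encodes the hypoxia-inducible factor subunit HIF-2 alpha, stood at 7.98 and 7.22 in KO, against 8.55 and 8.59 in WT (difference -0.97, SE 0.284, limma adjusted p = 0.377). Egln3, a prolyl hydroxylase of these factors, stood at 4.22 and 4.56 in KO, against 4.42 and 5.69 in WT (difference -0.67, limma adjusted p = 0.616). Hif1a itself, named after its value was seen, differed by 0.08 (limma adjusted p = 0.917).

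Among 4 measured angiopoietin-like genes, which encode secreted relatives of the angiopoietins that do not bind TIE2, 0 had a limma adjusted p under 0.05. Angptl7 stood at 4.87 and 4.96 in KO, against 6.26 and 6.06 in WT, with little spread within either genotype (difference -1.24, SE 0.141, limma adjusted p = 0.114). Angptl1 stood at 6.98 and 5.67 in KO, against 5.34 and 4.14 in WT (difference 1.59, SE 0.608, limma adjusted p = 0.446), where the isolations of a genotype were over 1 log2 unit apart.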
